A study of Mus musculus with 3 samples.

Results

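CD8+ conventional dendritic cells (cDC) of mouse spleen were compared with plasmacytoid DC (pDC) and with CD11b+ cDC, and the genes described are those whose signal on the CD8+ cDC array differed in the same direction from both other arrays. Of 11015 genes above background on any array, 1141 met this rule at 2-fold or more, 663 of them higher than both and 478 lower than both, out of 18194 genes measured. All 3 populations were sorted by flow cytometry from spleens of healthy, untreated female C57BL/6 mice aged 6 to 8 weeks, after T and B cells had been depleted with magnetic beads. RNA was pooled from 5 to 8 mice per cell type, and each pool was hybridised to 1 Affymetrix array, so a gene has 1 value per cell type. Since the signals themselves chose the members, their differences are descriptions with no test, and the spread between mice is unknown. In sorted populations, fewer cells of a contaminating type and less RNA per cell cannot be told apart.

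Dendritic cells take up antigen and present it to T cells. The CD8+ subset, also called cDC1, is known in mouse spleen for taking up dying cells, for presenting their antigens on MHC class I to CD8 T cells (cross-presentation) and for making interleukin 12. The CD11b+ subset, also called cDC2, is known for presenting on MHC class II to CD4 T cells, and pDC sense nucleic acids in endosomes and answer with type I interferon. The transcription factors IRF8 and BATF3 are needed for the development of CD8+ cDC.

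The array labelled CD8+ cDC carried the genes that define the subset. Signals are printed throughout in the order pDC, CD11b+ cDC and CD8+ cDC, as deposited, and a value of 111 or less is at background. Cd8a, whose protein names the sort, read 32230.5, 702 and 203567. Xcr1, the receptor for the chemokine XCL1, read 48.4, 48.3 and 10168, and only the CD8+ cDC array was above background. Tlr3, the endosomal receptor for double-stranded RNA, read 435, 2629 and 132701. Itgae, encoding the integrin chain CD103, read 208, 254 and 55144. Cadm1, an adhesion molecule, read 13334, 1163 and 128249. All 5 were highest in CD8+ cDC, by 6.32-fold for Cd8a, at least 91.5-fold for Xcr1, 50.5-fold for Tlr3, 217-fold for Itgae and 9.62-fold for Cadm1 over the brighter of the other arrays. The middle value differed: pDC stood second for Cd8a and Cadm1 and CD11b+ cDC for Tlr3.

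Of a wider list of 28 measured CD8+ cDC markers, 23 were higher than both at 2-fold or more and 0 were lower, against 6.02% and 4.34% of all genes tested. The list repeats what is known of these cells, and its members were taken partly with these data in view, so the count describes the array and is no independent evidence. Hepacam2 read 93.7, 95.4 and 34867 and Gcsam, a signalling adaptor, read 76.6, 78.6 and 36892. The Wnt receptor gene Fzd1 read 108, 145 and 22187 and Gpr33, an orphan chemoattractant-type receptor, read 208, 153 and 9818. In all 4 the other arrays lay near background. The remaining 5 markers were not specific to the CD8+ array. Irf8 read 646349, 11554 and 534491, Tlr12, a receptor for profilin of parasites, read 4685, 116 and 4045, and both were thus shared with pDC. Batf3 read 172, 30189 and 37688, Wdfy4, which cross-presentation needs, read 45401, 242586 and 332610, and the phosphatase gene Ptpn22 read 284, 37446 and 18208. CD11b+ cDC stood within 2-fold of CD8+ cDC for Batf3 and Wdfy4 and above them for Ptpn22. Clec9a was not analysed here.

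**Figure D1:**
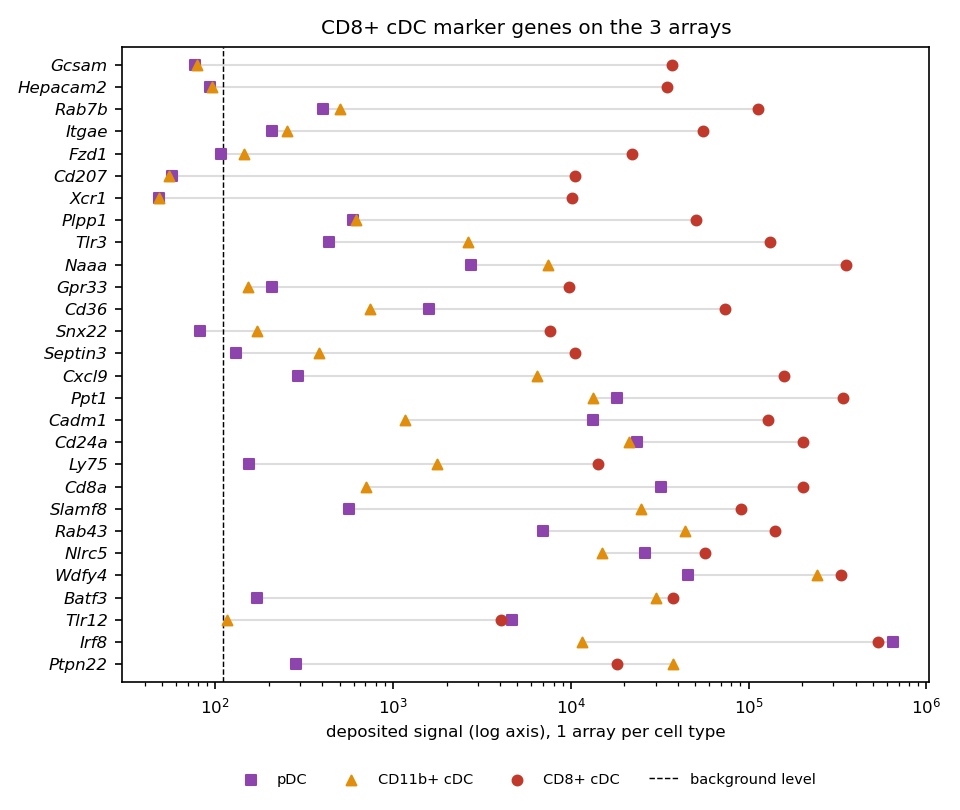
Deposited signal (log axis) of 28 CD8+ cDC marker genes on the pDC, CD11b+ cDC and CD8+ cDC arrays, 1 point per array, with the background level of 111 as a dashed line. The CD8+ cDC point lies at the right for 23 genes by 2-fold or more, while Irf8 and Tlr12 are shared with pDC and Batf3 with CD11b+ cDC.

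The 663 higher genes were 6.02% of those tested and the 478 lower ones 4.34%. At 4-fold or more 269 were higher (2.44%) and 152 lower (1.38%). At 10-fold or more 109 were higher (0.990%) and 48 lower (0.436%), and at 100-fold or more 11 and 1, so with the deposited values large differences lay more often on the higher side. Without any size limit, 3564 genes were higher than both and 3181 lower. The CD8+ cDC array was 2-fold or more above pDC for 1604 genes (14.8%) and below it for 1730 (16%). Against CD11b+ cDC the counts were smaller, 1056 above (9.86%) and 1101 below (10.3%). Of the genes higher than CD11b+ cDC, 62.8% were also higher than pDC, whereas 41.3% of those higher than pDC were also higher than CD11b+ cDC. These comparisons share the CD8+ cDC array, which alone makes their genes overlap.

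The split between higher and lower depends on how the arrays are set against each other. Higher genes made up 58.1% of the members with the deposited values. They made up 12.3% (292 higher, 2083 lower) with the arrays scaled on 18 hybridization spike-in probe sets. With arrays scaled on the median signal of 13 housekeeping genes, taken on each array separately, they made up 24.4% (366 and 1137). The median difference of those 13 genes was 0.43 (log2) against pDC and -0.12 against CD11b+ cDC with the deposited values. After housekeeping scaling it was -0.51 against both. That scaling therefore overshot the level of the housekeeping genes, and counts under it are tilted toward lower. With spike-in scaling the median of the same genes was -0.21 against pDC and -1.12 against CD11b+ cDC. Judged by these genes, counts under spike-in scaling are tilted toward lower too. The spike-in probe sets were dimmer on the other arrays than on the CD8+ cDC array, by a log2 difference of -0.64 for pDC and -0.99 for CD11b+ cDC. Those scalings moved the median difference of all genes tested to -0.60 and -0.90 (log2) against pDC and to -0.93 and -0.33 against CD11b+ cDC, from 0 in both cases. The shares of all genes tested became 2.71% higher and 19.3% lower with spike-in scaling, and 3.38% and 10.5% with housekeeping scaling. The scalings shift every gene alike, so the list counts given under them below move with these shares and say nothing of a list by themselves. Differences are relative to the bulk of genes. Of 294 named genes that met the rule, 294 kept their direction against both arrays under either scaling, and 252 and 264 also kept the 2-fold size. Both scalings shifted the arrays by less than 2-fold, which cannot reverse a gene that met the rule. The kept direction was thus fixed in advance and shows nothing. Signal ratios of the 3' to the 5' control probe sets, a measure of RNA integrity and amplification, were 5.71, 2.91 and 4.08 for Actb and 16.2, 9.68 and 17.6 for Gapdh; their part in the results was not tested.

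Members varied in where the other arrays stood. Among the 663 higher genes, pDC and CD11b+ cDC lay within 2-fold of each other for 437, CD11b+ cDC was at least 2-fold above pDC for 180 and pDC above CD11b+ cDC for 46. In 85 of them both other arrays were at background. Among the 478 lower genes the other arrays were within 2-fold for 282, and pDC exceeded CD11b+ cDC for 147 and the reverse held for 49. The CD8+ cDC array was at background for 41 of the lower genes. A further 156 genes placed CD8+ cDC between the others, above pDC and below CD11b+ cDC, and 100 placed it below pDC and above CD11b+ cDC.

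**Figure D2:**
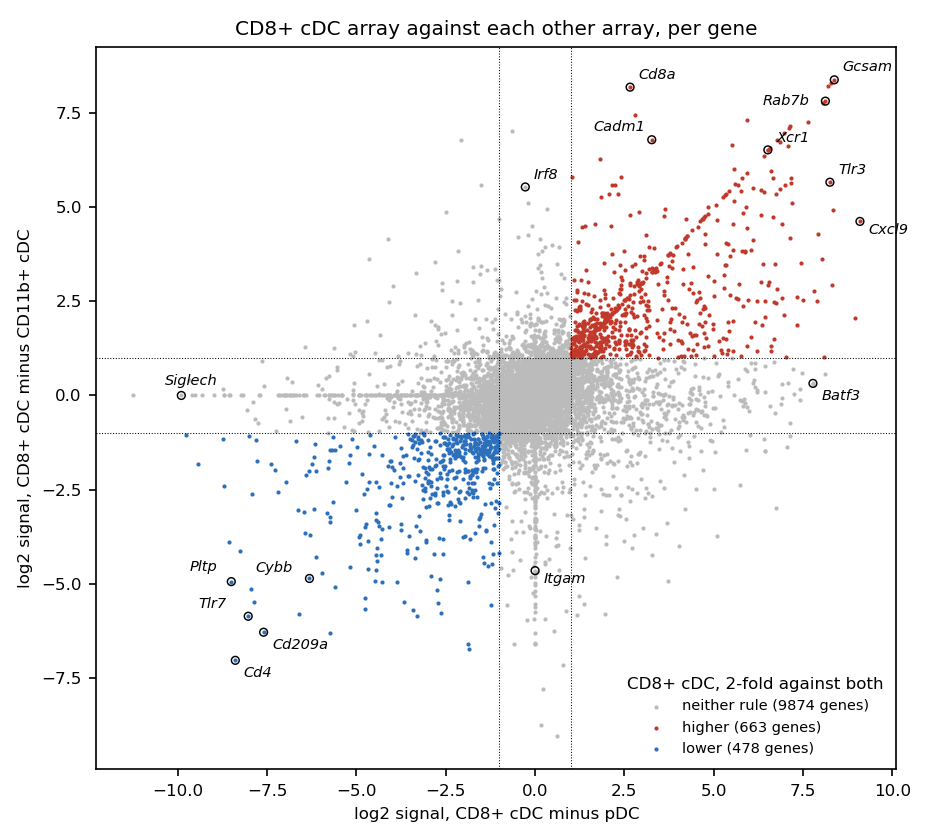
Each of 11015 genes is a point at its log2 difference between CD8+ cDC and pDC (x axis) and between CD8+ cDC and CD11b+ cDC (y axis), with dotted lines at 2-fold. The 663 genes higher than both (red) lie at the upper right and the 478 lower than both (blue) at the lower left; Irf8 and Batf3 each differ from 1 array only.

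The limit of 2-fold is a convention. Just inside it on the higher side lay Piezo1, with signals of 3448, 18538 and 37084, and Ap3s1 (37179, 34127 and 74586); just outside lay Atp2b1 (5599, 9151 and 18241) and Ppp1r11 (3087, 3861 and 7683). On the lower side Zfp712 (1753, 1444 and 721) and Gm6958 (10239, 2339 and 1168) were inside, and Eif5a2 (534, 456 and 228) and Bicral (9449, 4221 and 2113) outside. A second probe set on the same array gave another reading of a gene, though not a repeat of the same measurement. Of 291 higher genes that had more than 1 detected probe set, the next brightest pointed the same way against both arrays for 95.2% and reached 2-fold for 60.5%. Of 215 lower genes the shares were 74.9% and 50.2%, and 2 reached 2-fold in the opposite direction. Over all 4966 genes with such a pair, the differences from the other arrays (log2) of the pair disagreed with an SD of 0.91 against pDC and 0.75 against CD11b+ cDC. A difference near 2-fold, 1 on the log2 scale, is close to that spread.

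Upstream sequences of 5 genes are shown here as examples, to set the letters beside the signals, and do not stand for the other members. Cd8a, Tlr3 and Cxcl9 were higher than both, and Cybb, the catalytic subunit of the phagocyte NADPH oxidase, and Oas1a, an interferon-inducible antiviral synthetase, were lower than both. Each is the stretch of 250 bases before the gene's start (the first listed, where there are several) from RefSeq, assembly GRCm38.p6, 5' to 3' along the gene. Capitals mark matches to the motifs named after the sequences, other than CCAAT and the E-boxes. All 5 stretches hold such matches, whereas that of the marker gene Xcr1, not shown, holds only an E-box and a CCAAT match. The positions are chr6:71373177-71373426, + strand for Cd8a, chr8:45410381-45410630, - strand for Tlr3, chr5:92328080-92328329, - strand for Cxcl9, chrX:9469325-9469574, - strand for Cybb and chr5:120907526-120907775, - strand for Oas1a.
Cd8a: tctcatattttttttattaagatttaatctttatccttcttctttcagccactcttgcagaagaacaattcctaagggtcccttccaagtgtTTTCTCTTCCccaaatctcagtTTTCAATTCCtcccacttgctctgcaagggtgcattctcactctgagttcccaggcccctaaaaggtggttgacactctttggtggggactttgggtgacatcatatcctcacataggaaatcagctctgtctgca
Tlr3: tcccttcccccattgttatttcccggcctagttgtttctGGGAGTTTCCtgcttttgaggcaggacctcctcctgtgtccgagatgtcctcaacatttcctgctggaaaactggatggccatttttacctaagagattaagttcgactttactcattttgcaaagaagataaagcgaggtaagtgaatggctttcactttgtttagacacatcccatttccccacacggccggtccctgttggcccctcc
Cxcl9: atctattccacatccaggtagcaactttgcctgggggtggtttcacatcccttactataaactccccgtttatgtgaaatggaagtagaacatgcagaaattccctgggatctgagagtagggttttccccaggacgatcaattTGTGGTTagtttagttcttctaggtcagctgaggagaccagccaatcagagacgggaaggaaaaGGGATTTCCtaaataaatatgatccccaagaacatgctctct
Cybb: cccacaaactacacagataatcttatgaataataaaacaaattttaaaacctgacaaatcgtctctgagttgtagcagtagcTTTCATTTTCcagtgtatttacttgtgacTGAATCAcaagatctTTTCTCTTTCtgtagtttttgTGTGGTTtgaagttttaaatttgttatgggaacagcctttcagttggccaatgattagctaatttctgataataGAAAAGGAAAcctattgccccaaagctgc
Oas1a: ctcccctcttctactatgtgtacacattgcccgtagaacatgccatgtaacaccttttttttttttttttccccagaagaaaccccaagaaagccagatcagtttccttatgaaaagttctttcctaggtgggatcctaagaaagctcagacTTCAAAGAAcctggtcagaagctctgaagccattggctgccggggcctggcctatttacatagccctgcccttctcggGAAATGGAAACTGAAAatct

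The stretch before Cd8a held the ETS-IRF composite at 2 places, as TTTCTCTTCC and TTTCAATTCC on the opposite strand. That of Tlr3 held the longer NF-kappaB motif as GGGAGTTTCC, and that of Cxcl9 the shorter one as GGGATTTCC, close to the start, and a RUNX match. Cybb had 3 IRF pairs, 1 AP-1 and 1 RUNX match, and Oas1a had 2 overlapping IRF pairs, GAAATGGAAA and GAAACTGAAA, beside a GAS match. The shares of members with each motif are given beside those of all genes tested. Both strands were searched for 13 motifs, with overlaps allowed, in 8992 of the 11015 genes tested, including 536 of the higher and 367 of the lower genes. The IRF pair (GAAA, any 2 bases, GAAA) occurred before 1.68% of higher, 5.18% of lower and 2.76% of all these genes, in that order below. AP-1 (TGANTCA) occurred before 3.54%, 4.36% and 4.28%. The ETS-IRF composite (GGAA, any 2 bases, GAAA) occurred before 2.43%, 1.36% and 2.10%. The shares for NF-kappaB (GGGANTTCC) were 1.68%, 2.18% and 1.94%, for its longer form (GGGA, any base, TTTCC) 0.56%, 0.54% and 0.37%, for PU.1 (GAGGAAGT) 3.92%, 3.54% and 2.68%, and for RUNX (TGTGGTT) 3.17%, 4.09% and 3.15%. For GAS (TTCNNNGAA) they were 5.41%, 5.72% and 6.11%, for the E-boxes CAGGTG 16.8%, 18% and 15.1% and CACGTG 6.34%, 10.1% and 8.53%, and for CCAAT 29.7%, 35.4% and 36.8%. The AP-1-IRF composites (TGANTCA, any 4 bases, GAAA, and GAAA directly followed by TGANTCA) occurred before 0 higher and 0 lower genes and before 3 and 7 of all. A match is only a match of letters, and its absence says nothing of a factor binding elsewhere.

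In 153 higher and 73 lower genes, 2 or more probe sets were detected and each of them met the rule. Among these the largest differences on the higher side began with Gcsam (at least 332-fold) and Rab7b, a small GTPase of late endosomes. Rab7b read 405, 505 and 113196, so it was 224-fold above the brighter of the other arrays. Itgae and Fzd1 followed, and then Dkk3, a secreted protein of the Dickkopf family, at 75.6, 72.7 and 15757. Sh3pxd2b, a scaffold of actin-rich podosomes, read 175, 237 and 23398, Fam149a read 64.4, 84.4 and 10122 and Plpp1, a membrane lipid phosphatase, read 599, 621 and 50503. In all of these pDC and CD11b+ cDC were within 2-fold of each other. After Tlr3 came Hk3, a hexokinase of myeloid cells (434, 1229 and 61709.5), the protease inhibitor gene Serpinb8 (79.3, 79.0 and 5399.7) and Farp2 (128, 138 and 6621). Naaa, a lysosomal amidase of fatty acid ethanolamides, read 2758, 7437 and 354874 and the scavenger receptor gene Cd36 read 1602, 743 and 73733. Il12b, encoding the p40 chain of interleukin 12, closed the 15 at 113, 295 and 13132. The size depended on the probe set: from 11.6-fold to 246-fold for Rab7b, from 3.77-fold to 153-fold for Fzd1 and from 3.63-fold to 98.7-fold for Sh3pxd2b.

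On the lower side Cd4 led, at 37302, 14501 and 110.1, at least 130.4-fold below the dimmer of the other arrays; CD4 is also a protein used to divide CD11b+ cDC. Tlr7, the endosomal receptor for single-stranded RNA, read 36594, 8127 and 140.1. Lair1, an inhibitory receptor for collagen, read 114308, 16208 and 461. The CD8+ cDC array was at background for Cd4, near it for Tlr7 and above it for Lair1. Pltp, which transfers phospholipids between lipoproteins, read 411198, 34782 and 1134 and Cybb read 152140, 55312 and 1911. St8sia1, a sialyltransferase of gangliosides, read 14328, 14079 and 670.1, and Acap1, which acts on the GTPase ARF6, read 64690.3, 45909.7 and 3252. The membrane protein gene Gpm6b read 117065, 52025 and 3858, and the immunoglobulin heavy chain gene Igha 32842, 49339.9 and 2732. S100a10, the partner of annexin A2, read 24246, 21430.4 and 1808, and Serpini1 2441, 1915 and 180.3. Gpr183, the receptor for oxysterols that guides DC in the spleen, read 10729, 20966 and 1052. The last 3 of the 15 were the chromatin gene Arid5b (3708, 4802 and 399), the Src family kinase gene Fgr (56575, 54579 and 5965) and the transcription factor gene Mef2c (79491, 31520.3 and 3611). For Mef2c all 5 probe sets met the rule, from 8.73-fold to 12.7-fold, and for Arid5b the range was 2.07-fold to 9.30-fold.

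**Figure D3:**
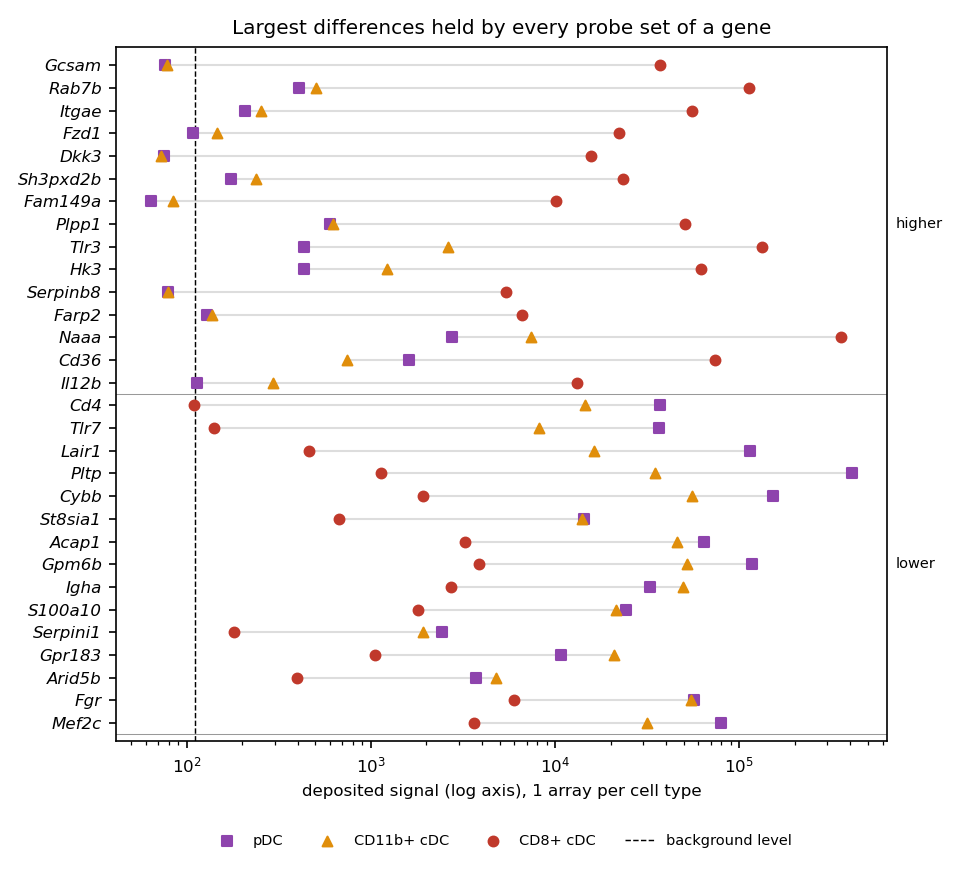
Deposited signal (log axis) on the pDC, CD11b+ cDC and CD8+ cDC arrays, 1 point per array, of the 15 genes with the largest difference in each direction whose probe sets all met the 2-fold rule; the dashed line is the background level. CD8+ cDC points lie at the right in the upper block and at the left in the lower one, and for Cd4 the CD8+ cDC signal is at background.

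Tlr3 and Tlr7 went in opposite directions. Of 26 measured receptor, trafficking and adaptor genes, 2 were higher than both and 1 lower (1 and 5 with spike-in scaling, 2 and 5 with housekeeping scaling), shares of 7.69% and 3.85% that lie near the 6.02% and 4.34% of all genes. Tlr3 was 305-fold above pDC and 50.5-fold above CD11b+ cDC. Tirap, an adaptor of MyD88-dependent receptors, read 1251, 2425 and 6388. The lower gene was Tlr7, 261-fold below pDC and 58.0-fold below CD11b+ cDC, in all 3 of its probe sets. Other receptors did not meet the rule. Tlr13, which senses bacterial ribosomal RNA, read 131, 19426 and 19796, close to CD11b+ cDC. Tlr1, which pairs with TLR2 on lipopeptides, read 104, 50790.4 and 3806, and so was between the other arrays. The chaperone gene Unc93b1, which carries these receptors to endosomes, read 43866, 27461 and 29654, and Myd88 read 9872, 16144 and 11235, so neither reached 2-fold from both. The median difference over the 26 genes was 0.09 (log2) against pDC and 0.07 against CD11b+ cDC, and over all genes tested 0 in both.

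Genes of uptake receptors were called in both directions. Of 36, 6 were higher (16.7%, against 6.02% of all genes) and 5 lower (13.9%, against 4.34%). The counts were 3 and 5 with spike-in scaling and 4 and 7 with housekeeping scaling. Cd207, encoding the lectin langerin, read 57.1, 55.2 and 10554. Ly75, encoding the endocytic lectin DEC-205, read 154, 1768 and 14318. Cd36, which binds lipids and dying cells, was 46.0-fold above pDC and 99.2-fold above CD11b+ cDC. The inhibitory Fc receptor gene Fcgr2b read 4205, 4174 and 16285, and Havcr2, encoding the phosphatidylserine receptor TIM-3, read 1802, 30909.7 and 67423. Itgb5, a chain of the integrin that binds dying cells through MFG-E8, read 1178, 881 and 2617. The margin over the brighter array was narrow for Itgb5 (2.22-fold) and Havcr2 (2.18-fold). Only 1 of 4 Itgb5 probe sets met the rule, and on the rest CD11b+ cDC was the highest. Among the lower genes, Cd209a, a DC-SIGN homologue, read 21544, 8649.8 and 100.4 and the galactose-type lectin gene Clec10a 186442, 957 and 270. Fcer1g, the signalling chain shared by activating Fc receptors and several lectins, read 29553, 42453 and 2455. Cd93 read 738, 806 and 110.4 and Lifr, the receptor for leukemia inhibitory factor, read 78962, 1993 and 327. Lifr stands in this list although it is a cytokine receptor, and it is counted again among those below. For Cd93 and Lifr alike, 1 of 3 probe sets met the rule. The lectin genes Clec7a (403, 22365 and 3419) and Clec4a2 (318, 34496 and 457) were below CD11b+ cDC but not below pDC.

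Genes tied to cross-presentation were called higher for 5 of 34 (14.7%, against 6.02% of all genes). They were lower for 2 (5.88%, near the 4.34% of all genes). The counts were 3 and 8 with spike-in scaling and 4 and 5 with housekeeping scaling. The 5 higher genes were all Rab GTPases, which steer vesicles between compartments. Rab43, needed for cross-presentation by these cells, read 6991, 44155 and 140200. Rab39 read 819, 1274 and 7279, Rab32, of lysosome-related organelles, 1353, 14651 and 76139, and Rab11a, of recycling endosomes, 20870.2, 26298 and 69100.3. With Rab7b they ranged from 2.63-fold to 224-fold above the brighter of the other arrays. Only 1 of 2 probe sets of Rab11a met the rule. When every probe set had to meet it, the list held 4 higher genes. The lower genes were both of the phagocyte oxidase, which consumes protons in the phagosome: Cybb and its activating GTPase gene Rac2 (64829, 43199.7 and 10327). Other subunits did not meet the rule. Cyba, the partner chain, read 170596, 276891 and 141261, Ncf1 144896, 81425 and 66348 and Ncf4 11106, 46699.6 and 48570. Hvcn1, a proton channel that balances the oxidase's charge, is not in the list and was singled out after its values were seen; it read 145628, 27929 and 2704 and was 10.3-fold below the dimmer array.

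Of 19 MHC class I loading genes, 3 were higher (15.8%, against 6.02% of all genes) and 0 lower (against 4.34%). The counts were 0 and 2 with spike-in scaling and 1 and 0 with housekeeping scaling. Tap1, a chain of the peptide transporter, read 31011, 38625 and 92345. Nlrc5, the transactivator of class I genes, read 26224, 14888 and 57147. Cd1d1, which presents lipids, read 41467, 101874 and 296082. Without probe sets above a deposited signal of 65535 on any array, a cut on brightness, the list held 1 higher gene in place of 3. The chains themselves did not meet the rule: H2-K1 read 376145, 313720 and 361063, and B2m 485880, 464439 and 407398. Nor did Psmb9, an immunoproteasome subunit, at 103662, 122739 and 209422. The median difference was 0.43 (log2) against pDC and 0.76 against CD11b+ cDC, against 0 for all genes; with spike-in scaling it was -0.21 and -0.22, against -0.60 and -0.93 for all genes. Of 17 MHC class II genes, 2 were higher (11.8%, against 6.02%) and 1 lower (5.88%, near the 4.34% of all genes). The counts were 0 and 4 under either scaling. All 3 calls were lost, with 0 higher and 0 lower, both with the mean over probe sets and when every probe set had to meet the rule. Marchf1, a ubiquitin ligase that removes class II from the surface, read 12802, 31562 and 74007 at its brightest probe set and was higher there. Of the subunits of the factor that binds class II promoters, Rfxap was higher, at 5216, 4690.4 and 10719.9, and Rfxank lower, at 1250.1, 994 and 426. H2-Ab1, a class II chain, read 502865, 695183 and 765493 and did not meet the rule.

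The endolysosomal and lipid genes split, 5 of 36 higher (13.9%, against 6.02% of all genes) and 7 lower (19.4%, against 4.34%). The counts were 5 and 15 with spike-in scaling and 5 and 10 with housekeeping scaling. Naaa was 129-fold above pDC and 47.7-fold above CD11b+ cDC. Ppt1, which removes palmitate from proteins in the lysosome, read 18192, 13305 and 340041, and all 4 of its probe sets met the rule. Plpp1, Cd36 and the desaturase gene Scd1 (73.2, 133 and 1585) were the other higher ones. Gusb, a lysosomal hydrolase placed in the housekeeping list, read 22886, 15272 and 230997. The lower genes were lysosomal proteases and genes of lipid transport and breakdown. Ctsa, encoding cathepsin A, read 113906, 96184 and 20634, Ctsd 28108, 17055 and 3567 and Ctsc, which activates granule proteases, 224978, 195950 and 73931. Npc1, the lysosomal cholesterol exporter, read 34329, 8121 and 2658, while its partner Npc2 read 277075, 96559.7 and 240283. Abca1 (324, 651 and 156) and Lpl (767, 2711 and 378), a cholesterol exporter and a lipase, complete the list with Pltp. The cysteine protease inhibitor gene Cst3, from the list of shared conventional DC genes, read 105412, 135596 and 600908 and was 4.43-fold above the brighter array.

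Cytokine and chemokine genes were more often higher, 7 of 27 (25.9%), than lower, 3 of 27 (11.1%). The shares of all genes were 6.02% and 4.34%. The list's counts were 6 and 4 under either scaling. Il12b was 116-fold above pDC and 44.5-fold above CD11b+ cDC. Cxcl9, which draws CXCR3+ T cells, read 292, 6482 and 159117, and Cxcl16, a ligand for CXCR6, read 110.4, 4603 and 35379. Ccl22, which draws CCR4+ T cells, read 98.6, 868 and 15754. Il15, a survival factor for memory CD8 T and NK cells, read 62.2, 769 and 4859, and Il15ra, the receptor chain that presents it, 95.7, 408 and 1827. In all 6 the order was the same, with CD11b+ cDC in the middle and pDC lowest. Il6 was called as well, at 55.4, 69.8 and 226, a signal near background. Ccl3 read 1252, 6117 and 118, Ccl4 4449, 1033 and 276, and Ltb, encoding lymphotoxin beta, 16873, 63363 and 5693, and these were lower than both. Cxcl10, a gene induced like Cxcl9, read 909, 2436 and 3319.6 and did not meet the rule. Ifngr1, the ligand-binding chain of the receptor for interferon gamma, read 5809, 57693 and 119595 and was higher than both.

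Receptors that guide migration were lower than both for 4 of 16 (25%, against 4.34% of all genes). They were higher for 1 (6.25%, near the 6.02% of all genes). The counts were 3 and 1 with spike-in scaling and 4 and 1 with housekeeping scaling. The higher one was Xcr1. Gpr183 was 10.2-fold below pDC and 19.9-fold below CD11b+ cDC. Ccr6, the receptor for CCL20, read 259.6, 5235 and 39.9, Ackr3, a scavenging receptor for CXCL12, 940.4, 606 and 75.3, and Cmklr1, the chemerin receptor, 236, 235 and 73.9. These 3 were at background in CD8+ cDC, so their folds are lower bounds, and with background at the 99th percentile the list held 1 lower gene in place of 4. Cxcr3 read 54069.9, 1045 and 26748 and Ccr9 126946, 412 and 7355, which placed CD8+ cDC below pDC and above CD11b+ cDC. Ccr7, which takes DC to T cell zones, read 483, 17419.5 and 31729, less than 2-fold from CD11b+ cDC. Of 31 cytokine receptor genes, Il15ra and Ifngr1 were higher (6.45%, near the 6.02% of all genes) and 3 were lower (9.68%, against 4.34%), or 1 and 9 with spike-in scaling and 1 and 5 with housekeeping scaling. The lower ones were Lifr, Il21r (4361, 5233 and 1355) and Il17ra (55851, 49013 and 17705). Flt3, the receptor that drives DC development, read 42851, 56499 and 78033 and Csf1r 7665, 64906 and 11778.

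Contact molecules for T cells included Btla, an inhibitory receptor that binds HVEM, at 25719.9, 27615 and 273695, 9.91-fold above the brighter array. Cd86, a ligand of CD28, read 655, 12878 and 70310.3, while Cd80 read 147, 3629 and 3369 and Cd40 1679.9, 34751 and 40479.7, both within 2-fold of CD11b+ cDC. Slamf8 read 562, 24723 and 90660.1 and Ctla4 111, 101 and 379.8, the latter low throughout. In all, 5 of 24 costimulatory and coinhibitory genes were higher (20.8%, against 6.02% of all genes) and 2 lower (8.33%, against 4.34%). The counts were 2 and 2 with spike-in scaling and 3 and 2 with housekeeping scaling. The lower genes were Lgals9, encoding galectin 9, a ligand of TIM-3 (4118, 4008 and 526), and the inhibitory receptor gene Cd200r1 (1919, 762 and 305). Cd274, encoding PD-L1, read 1963, 29976 and 5688 and was highest in CD11b+ cDC.

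**Figure D4:**
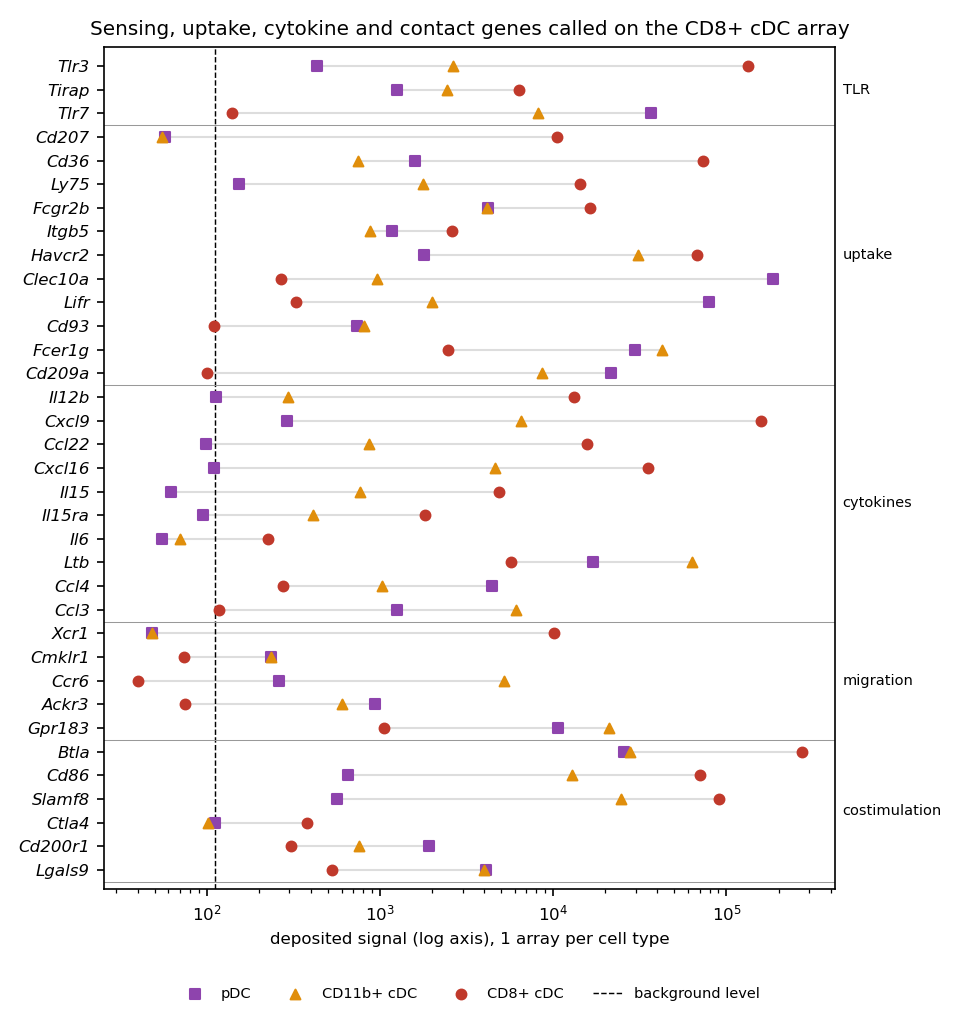
Deposited signal (log axis) on the pDC, CD11b+ cDC and CD8+ cDC arrays, 1 point per array, of sensing, uptake, cytokine, migration and costimulation genes that met the 2-fold rule; the dashed line is the background level. The CD8+ cDC point is at the far right or far left in each row by construction, and the middle array differs between genes, as for Tlr3 and Cd36.

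Integrins and adhesion molecules were called higher for 9 of 35 (25.7%, against 6.02% of all genes) and lower for 6 (17.1%, against 4.34%). The counts were 4 and 7 with spike-in scaling and 5 and 7 with housekeeping scaling. Itgae and its partner chain went opposite ways. Itgae was 217-fold above CD11b+ cDC, whereas Itgb7, with which it binds E-cadherin, read 94518, 69725 and 31101 and was lower than both. Itga6, a laminin receptor chain, read 436, 822 and 3942, and Itgb1 7093, 9883 and 22515. Only 1 of 2 probe sets of Itga6 and 1 of 5 of Itgb1 met the rule. Itgb3 read 20707, 3415 and 264, lower than both. The tetraspanin genes Cd81 (1442, 14448 and 116110), Tspan33 (769, 11059 and 31117) and Cd9 (370.3, 23618 and 48284) were higher. Sirpa, the receptor that inhibits phagocytosis and marks CD11b+ cDC, read 36974, 78989 and 2545. Its ligand gene Cd47 read 152308, 85684 and 39977, so at their brightest probe sets both sides of that pair were lower than on the other arrays. Only 2 of 5 Cd47 probe sets met the rule, and 2 of 3 for Sirpa. Itga8, an integrin chain outside the list that was singled out after its values were seen, read 58.2, 58.6 and 12205.

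Transcription factor genes of DC development were lower than both more often than higher, 10 of 52 (19.2%) against 3 (5.77%). Of all genes 4.34% were lower and 6.02% higher, so the higher share lay near that of all genes. The list's counts were 15 and 0 with spike-in scaling or 14 and 0 with housekeeping scaling. When every probe set had to meet the rule, 5 were lower and 3 higher. With background at the 99th percentile 7 were lower and 3 higher. Factors of the plasmacytoid and lymphoid lineages made up several of the lower ones. Tcf4, the E protein that specifies pDC, read 172720, 5895 and 2420.5. Spib read 142803, 13919 and 1619, Zeb2 40052, 7016 and 744, Ets1 91627, 3684 and 629 and Ikzf3 2783, 548 and 50.1, all highest in pDC with CD8+ cDC below CD11b+ cDC as well. Irf4 and Klf4, factors of the CD11b+ subset, read 5566, 11713 and 855 and 44347, 92170.4 and 14332. The rule was met by 5 of 6 probe sets of Tcf4 and 4 of 5 of Zeb2. For Ets1 it was met by 2 of 4, and for Ikzf3 and Irf4 by 1 of 2 each. The 3 higher genes exceeded the brighter array by 2.23-fold to 2.53-fold. Nfil3, which is needed for CD8+ cDC, read 694, 461 and 1752, Mycl, a Myc family member of DC, 28677, 9219 and 64087, and the nuclear receptor gene Nr4a3 220.3, 8636 and 21562. Id2, the inhibitor of E proteins, read 5378, 236305 and 385975, 1.63-fold above CD11b+ cDC, and Zbtb46 215, 19657 and 31850.3. Of 3 Id2 probe sets, the 2 dimmer ones did meet the rule, at 2.13-fold and 7.50-fold. At their brightest probe sets Id2 and Zbtb46 thus separated both cDC arrays from pDC more than from each other.

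Interferon-inducible genes were lower than both for 8 of 40 (20.0%, against 4.34% of all genes). They were higher for 2 (5.00%, near the 6.02% of all genes). Under either scaling 16 were lower and 1 higher. Of all genes, 19.3% were lower with spike-in scaling and 10.5% with housekeeping scaling. The median difference was -0.63 (log2) against pDC and -0.99 against CD11b+ cDC. Against CD11b+ cDC 19 of the 40 were lower by 2-fold or more, beside 10.3% of all genes. Oasl2, an antiviral synthetase-like protein, read 9999.7, 15238 and 369, and Ifi27l2a 20223, 15487 and 936. Oas1a read 5031, 42542 and 1372, Xaf1 2872, 5602 and 861 and Rsad2, encoding viperin, 17218, 17449 and 6021. Usp18, which ends interferon signalling, read 18472, 20398 and 7841. Within the list Mx1 went against them, at 9425, 6945 and 26427, together with Cxcl9. The list does not hold every interferon-inducible gene, so the counts describe its members only. Gbp2b and Parp12, which lie outside it, were higher than both and were singled out after their values were seen. Irf7 read 31744, 8613 and 6648 and did not meet the rule.

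**Figure D5:**
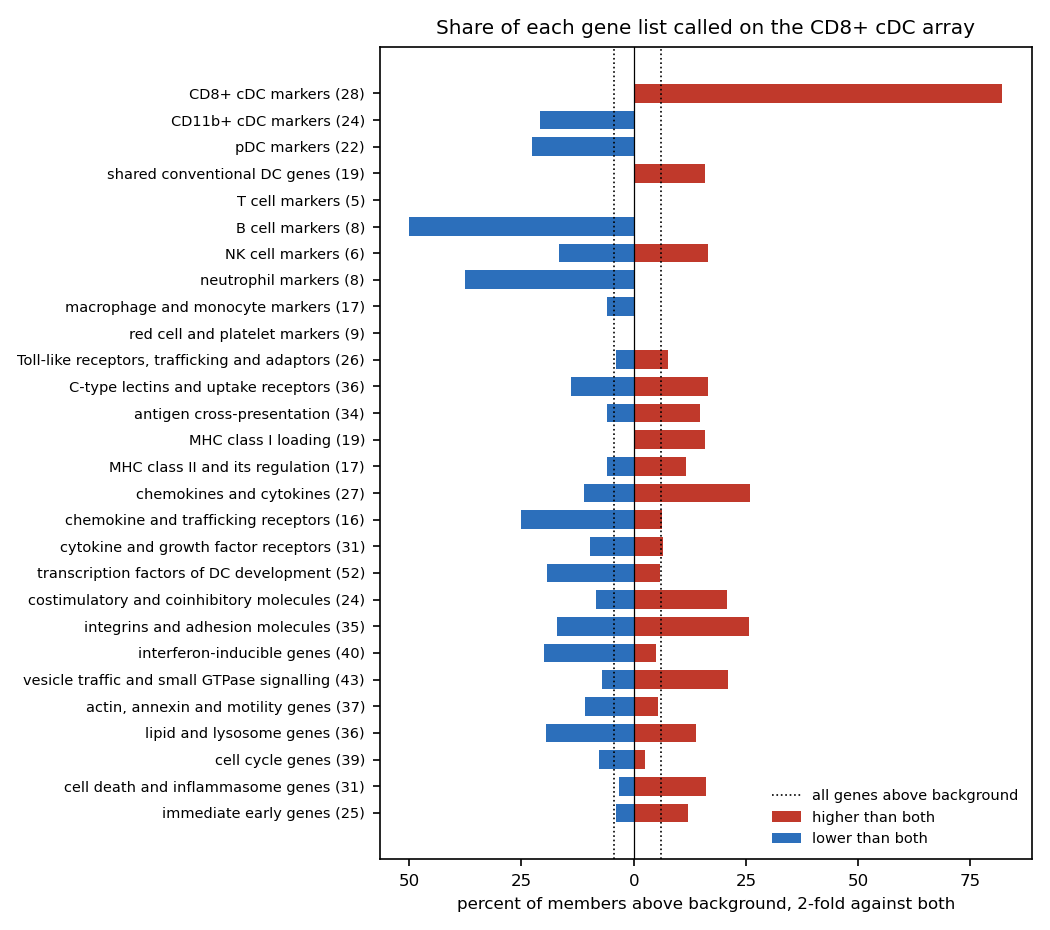
Percent of the members above background of 28 gene lists that were 2-fold or more higher (red, to the right) or lower (blue, to the left) than both other arrays, with the number of members above background in brackets. Dotted lines mark 6.02% and 4.34%, the shares over all genes above background; the CD8+ cDC marker list stands at 82.1% higher, and interferon-inducible genes at 20.0% lower.

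Of 43 genes of vesicle traffic and small GTPases, 9 were higher (20.9%, against 6.02% of all genes) and 3 lower (6.98%, against 4.34%). The counts were 5 and 8 with spike-in scaling and 6 and 6 with housekeeping scaling. Beyond the Rab genes above, the sorting nexin gene Snx22 read 82.1, 171 and 7686, the membrane fusion gene Stx3 2985, 1786 and 19387 and Arhgap22, which acts on RAC1, 214, 6960 and 47559.5. Rgs18, which ends G protein signals, read 24402, 20797 and 3479 and was lower. Of 31 cell death genes, 5 were higher (16.1%, against 6.02% of all genes) and 1 lower (3.23%, near 4.34%). The counts were 2 and 3 with spike-in scaling and 3 and 2 with housekeeping scaling. Fas, the death receptor, read 170.1, 126 and 889, Casp6 6837, 6382 and 28188 and Bcl2l11, encoding the death-promoting protein BIM, 3582, 4878 and 14161. Casp1, the inflammasome protease, read 8257, 19613 and 3924. Among actin and motility genes, 2 of 37 were higher (5.41%, near the 6.02% of all genes) and 4 lower (10.8%, against 4.34%), or 1 and 8 with spike-in scaling and 2 and 7 with housekeeping scaling. Lgals3, encoding galectin 3, read 5038, 21261 and 195334, against Lgals1 at 392264, 19921 and 7302. S100a6 read 47583, 55291 and 4142 and was lower, like S100a10.

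Cell cycle genes met the rule about as often as all genes, with 1 of 39 higher (2.56%, against 6.02%) and 3 lower (7.69%, against 4.34%), or 1 and 7 with spike-in scaling and 1 and 6 with housekeeping scaling. Cdkn1a, encoding the kinase inhibitor p21, read 582, 3136 and 14413, and the cyclin gene Ccnd1 107267, 179199 and 31640.3. The list's median was 1.94 (log2) against pDC and -0.61 against CD11b+ cDC, so on the median CD8+ cDC lay between the others. Of 25 immediate early genes, a class that cell isolation can induce, 3 were higher (12%, against 6.02%) and 1 lower (4%, near 4.34%). The counts were 1 and 3 with spike-in scaling and 1 and 2 with housekeeping scaling. Egr3 read 408, 8194 and 49121 and Nr4a2 371, 5974 and 13678, and Nfkbiz 105684, 77886 and 33241. Of 13 housekeeping genes, Gusb and Pgk1, a glycolytic enzyme (44204, 47840.5 and 142041), were higher and the transferrin receptor gene Tfrc (130348, 49620.1 and 11229.5) lower. These were 15.4% and 7.69%, against 6.02% and 4.34% of all genes.

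Many of the 109 higher and 48 lower genes past 10-fold lay outside the lists, and those that follow were picked after their values were seen. Protease inhibitors of the serpin B family were among them: Serpinb9, an inhibitor of granzyme B, read 2076, 7405 and 81922, and Serpinb6b 2509, 9807 and 171212, beside Serpinb8. The semaphorin genes Sema4f and Sema4a read 88.3, 1195 and 35962 and 516, 2348 and 34263. Notch4 read 73.3, 291 and 15852 and Met, the receptor for hepatocyte growth factor, 269, 699.9 and 28694. Enzymes of prostanoid and glutathione synthesis were included, with Ptgis, prostacyclin synthase, at 202, 316 and 19739 and Gclc at 2802, 2944 and 48340.5. Ptger2, a prostaglandin E receptor, read 87.4, 87.6 and 6105. The metal transporter gene Slc11a1, of phagosome membranes, read 679.7, 2272 and 29559, and Aif1 1506, 5883 and 83434. The signals of all these on the CD8+ cDC array exceeded the brighter of the others by 11.1-fold to 62.5-fold.

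Genes lower than both by more than 10-fold, likewise picked after their values were seen, included these surface receptors. Cd72, a B cell coreceptor, read 20820.1, 11879.5 and 213, Cd7 36986, 55320.1 and 698 and Tnfrsf13b, the receptor TACI, 71253, 13437 and 304. Cd300lf, a receptor for lipids of dying cells, read 50235, 48214 and 1976. Klrd1, encoding CD94 of NK receptors, read 96243, 83389 and 4413. Among others, Slc2a3, a glucose transporter, read 46826, 63994 and 2104, Slc15a3, a histidine and peptide transporter of endosomes, 28889, 15445 and 1408, and Slc16a7 3327, 1436 and 109. Ddr1, a collagen receptor kinase, read 461396, 302902 and 27184, and 5 of its 7 probe sets met the rule. Card6 (17293, 2493 and 199) and Lrp8, a reelin receptor (57436, 2229.9 and 151), were bright in pDC and intermediate in CD11b+ cDC.

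Some members were neighbours in the genome. In the order of start positions in the RefSeq table of GRCm38.p6, with 18146 measured genes placed, 13 runs of at least 3 adjacent measured genes met the rule in 1 direction, 8 of higher and 5 of lower genes, and 1 run held 4. The longest lay on chromosome 5 and held Ppef2 (69.9, 69.6 and 4789), Naaa, Sdad1 (4290.2, 3778 and 30689) and Cxcl9. On chromosome 11, Cxcl16, Zmynd15 (69.6, 444 and 2558) and Tm4sf5 (477, 328 and 3935) were adjacent and higher. Itga8 on chromosome 2 stood beside Mindy3 (9702, 6229 and 37732) and Pter (108, 425 and 1350.4). Lower runs included Neurl2 (859, 732 and 105), Ctsa and Pltp on chromosome 2. The chemokine genes Ccl3 and Ccl4 with Wfdc17 (1296, 3998 and 554) on chromosome 11, and Ms4a4c (25042, 135699 and 3759.7), Ms4a4b and Ms4a6c on chromosome 19, are clusters of related sequences in part, for which probe sets can cross-react. The same holds for the immunoglobulin genes Igha, Ighg3 and Ighm on chromosome 12.

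Markers of other cell types were checked beside these results. The plasmacytoid gene Siglech read 106310, 52.2 and 53.4 and Itgam, encoding CD11b, 63.6, 2786 and 64.3, so neither defining marker was above background on the CD8+ cDC array. Of 22 pDC markers all 22 were 2-fold or more below pDC, against 16% of all genes. Of these markers 5 were lower than both (22.7%, against 4.34% of all genes). Of 24 CD11b+ cDC markers 17 were 2-fold or more below CD11b+ cDC, against 10.3% of all genes, and 5 were lower than both (20.8%, against 4.34%). Cd3d, Cd3e and Cd3g were at background on all 3 arrays, as were 11 of 16 T cell markers, whose summed signals were 159107, 9378 and 4392, most of it from Il7r in pDC. Of 14 B cell markers 8 were above background and 4 of those lower than both (50%, against 4.34% of all genes). The sums were 380916, 253111 and 87042, most of the pDC sum from Ighm and Spib. Spib (142803, 13919 and 1619), among the 4 lower genes, is in the pDC marker list too, so it does not single out B cells. Cd79b read 10103, 4026 and 381 and Ighm 171513, 142572 and 50809, whereas Pax5 and Cd79a were at background on all arrays and Ms4a1 read 223, 11046 and 19147. For NK markers the sums were 97428, 98265 and 6490, most of it from Klrd1 (given above), and Ncr1 was at background throughout. Of 6 NK markers above background, Klrd1 was lower than both (16.7%, against 4.34% of all genes). Klrk1, at 126, 307 and 793, went the other way and was higher than both (16.7%, against 6.02%). The neutrophil sums were 2855, 26104 and 1566, with S100a8 at 489.8, 4393 and 242 and Ngp at 1266, 8912 and 458, both lower than both others. Of 8 neutrophil markers above background 3 were lower than both (37.5%, against 4.34% of all genes), S100a8 by only 2.03-fold. With background at the 99th percentile 1 was lower, and at 4-fold 0. The macrophage and monocyte sums were 127451, 366908 and 174445. Of 17 such markers 1 was lower than both (5.88%, near the 4.34% of all genes), Cd68 at 66046, 59157 and 28545. The red cell and platelet sums were 25117, 43397 and 24731. The part of other cells in the lower signals of Igha, Cd79b, S100a8 and related genes was not tested.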

How the data were processed

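The authors deposited an intensity on a linear scale for each of 45101 probe sets on each array, made with MAS5, per the submitters' processing notes; any scaling to a target is not stated in what was used here. RNA came from RNeasy columns, and 20 ng was amplified and biotin-labelled, per the labels' protocols. A single gene was annotated for 34958 probe sets. The background level was the 95th percentile of 87 chemosensory receptor probe sets on the array where it was highest, and lower values were set to it before log2. A gene was taken at its brightest probe set. With 1 array per cell type no test was run, and the number of arrays limits the precision. A fold against an array at background is written as at least that size. Motifs and neighbours came from RefSeq tables of GRCm38.p6. Members and lists were chosen with earlier results of these data known. Of 888 entries in 29 lists, 813 were matched. Named were fixed genes, up to 15 per direction with every one of 2 or more probe sets past 2-fold and the brightest array at 4 times background, up to 6 per list and direction, neighbours in runs, and, added after seeing values, genes past 10-fold. Python 3.11.15, numpy 2.4.6, pandas 2.3.3 and matplotlib 3.10.9 were used.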

Additional observations from a re-analysis of the deposited data

How the results depend on the processing

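With spike-in scaling, genes higher than both fell to 292 and those lower than both reached 2083; against pDC 979 were higher and 3389 lower, and against CD11b+ cDC 408 and 4775. With housekeeping scaling these were 366 and 1137, 855 and 4818, and 676 and 1822. That scaling left the housekeeping genes themselves at a median of -0.51 (log2) against both arrays, so it overshot. Spike-in scaling left them at -0.21 against pDC and -1.12 against CD11b+ cDC. At 4-fold the counts were 269 and 152, 821 and 744, and 406 and 425, and 72 list genes were called. Under the other alternatives (background at the 90th or 99th percentile, no floor with a pseudocount of 16, the mean over probe sets, every probe set passing, and probe sets above 65535 left out) all of these counts stayed within 1.5 times. No named gene reversed under any alternative, but for most of them this was fixed in advance. The scalings, the 4-fold limit and the demand that every probe set pass could not by themselves reverse a called gene. Another background level or a pseudocount could do so only by changing which probe set was brightest. Of 294 called named genes, 237 stayed called when every probe set had to pass and 272 with background at the 99th percentile, a signal of 412. No paired analysis was possible because each cell type has 1 array. No replicate could be left out for the same reason. Signals near the background level of 111 limit the folds of dim genes.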

Other observations

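Of 9160 probe sets without an annotated gene, controls aside, 2827 were above background. The CD8+ cDC array was 2-fold or more above both others for 149 of them (5.27%) and below both for 68 (2.41%). These probe sets were not matched to genes here.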
